A study of Mus musculus with 36 samples.

Results

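The fatty acid desaturases and elongases of mouse liver were followed here at the transcript level through feeding, fasting and refeeding, both in wild-type mice and in mice with a truncated Pik3r1 allele. The group was chosen by gene symbol in the deposited table of counts and held 9 genes of the 38283 in the table. They were the desaturases Fads1, Fads2, Fads3 and Scd2, the elongases Elovl1, Elovl2 and Elovl5, and Hsd17b12 and Tecr, which act with every elongase. All 9 passed the filter on low counts that left 13945 genes for testing.

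The livers came from 36 male C57Bl/6J mice aged 16 weeks and kept on chow, and each mouse gave 1 RNA sequencing library. Wild-type mice and PIK3R1(Y657X) mutant mice were each killed in 3 states with 6 mice per group: fed ad libitum, after a fast of 16 h, and 6 h into refeeding that followed such a fast. The mutants, called WT/Y657* here, were heterozygous for a knock-in of the human truncating mutation, and their controls were wild-type littermates. The allele was carried in every tissue, so that differences in liver cannot be assigned to the liver's own Pik3r1, which encodes the regulatory subunits of phosphoinositide 3-kinase in insulin signalling. The labels give every mouse a number, here with a prefix in which WT marks wild-type and MT mutant mice. They fell into 3 series: WT_847 to MT_869 for every fed mouse, and a low-number series (MT_806 to WT_828) and a high-number series (WT_896 to MT_923) for fasted and refed mice, with 3 mice of each genotype and state in each of the latter pair. Feeding state and number series therefore cannot be told apart in comparisons with fed mice.

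Long-chain polyunsaturated fatty acids are made in the endoplasmic reticulum by alternating desaturation and elongation of the dietary precursors linoleic and alpha-linolenic acid. Fads2 is the delta-6 desaturase, Elovl5 adds a pair of carbons to its products, Fads1 is the delta-5 desaturase, and Elovl2 extends the resulting chains towards docosahexaenoic acid. In each round of elongation the Elovl enzyme carries out the condensation, Hsd17b12 the first reduction, a Hacd dehydratase the loss of water, and Tecr the last reduction, whereas Scd2 makes monounsaturated acids and Elovl1 extends saturated and monounsaturated chains to very long ones. Several of these genes are known targets of SREBP-1, the product of Srebf1, and of PPAR-alpha.

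Library totals ranged from 8839488 to 19542775 counts with a median of 13596665.5, and the biological coefficient of variation was 0.181. Levels were given as CPM, counts scaled to the TMM-adjusted size of each library. Summed levels of 10 hepatocyte markers lay between 60131 and 107524 CPM in all libraries, against 380.9 to 588 CPM for 10 sinusoidal endothelial markers and 24 to 87.4 CPM for 8 cholangiocyte markers, so the labelled tissue was borne out by its markers. Pik3r1 was detected in every library between 74.5 and 182 CPM, and reads counted per gene do not separate the mutant from the wild-type allele.

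In fed wild-type liver, levels per kilobase of exon put 4 genes close together at the top. Elovl2 was at 85.3 ± 10.2 CPM per kb (SD, n = 6), Elovl5 at 79.7 ± 30.5, Fads1 at 78.7 ± 8.05 and Hsd17b12 at 75.8 ± 5.66. The ranges of these 4 genes overlapped, and their order cannot be read beyond the spread between mice. Fads2 followed at 59.6 ± 7.19 CPM per kb and Tecr at 45.5 ± 3.49. The range of Fads2, 51.5 to 71.7 CPM per kb, overlapped those of Elovl5, Fads1 and Hsd17b12, so its place below these genes is not firm either. Elovl1 at 10.2 ± 1.28, Fads3 at 2.32 ± 0.44 and Scd2 at 1.5 ± 0.31 CPM per kb were far lower, with no overlap between Elovl1 and either of them.

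**Figure D1:**
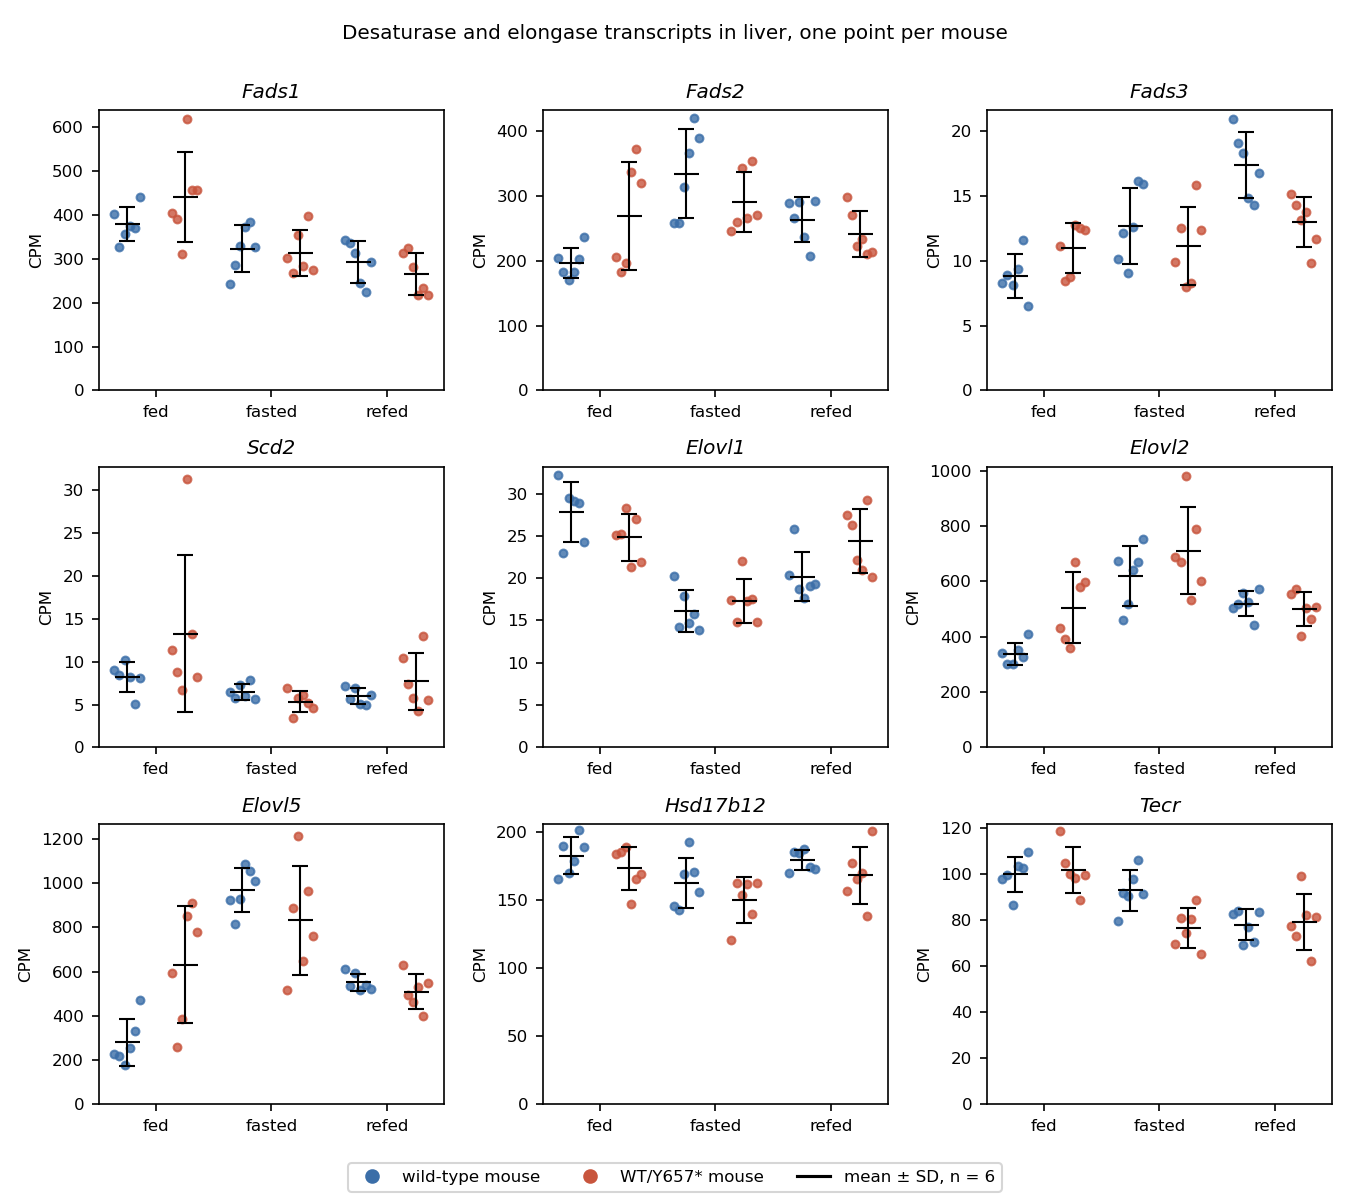
Levels of the 9 genes in CPM on axes that start at 0, for wild-type (blue) and WT/Y657* (red) mice in the fed, fasted and refed states, with 1 point per mouse and black bars for the mean ± SD of 6 mice. Elovl5 in wild-type mice runs from 177 to 473 CPM fed and from 813 to 1084 CPM fasted, and the fed WT/Y657* mice spread from 258 to 911 CPM.

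In wild-type liver the desaturases Fads2 and Fads3 and the elongases Elovl2 and Elovl5 rose on fasting, Elovl1 fell, and Fads1, Scd2, Hsd17b12 and Tecr did not pass the test. This made 5 of 9 genes called at an adjusted p under 0.05 in edgeR's quasi-likelihood test, when 32% of all genes tested were called in the same comparison. The share was above that background, but 9 genes chosen with earlier results known give no test of it. For 4 of the 5, Fads3 being the exception, the 6 fasted and 6 fed mice did not overlap. How many of all genes tested were free of overlap was not counted, so this only describes these genes.

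Elovl5, which condenses the products of the delta-6 desaturase, showed the steepest rise. It lay at 177, 242 and 473 CPM (lowest, median, highest) in fed wild-type mice and at 813, 970 and 1084 CPM in fasted ones. Every fasted mouse was above every fed mouse. The log2 fold change was 1.79 with a standard error of 0.24, or 3.45-fold, with an adjusted p of 3.8e-07.

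Elovl2, the elongase of the longest polyunsaturated chains, lay at 302, 333 and 410 CPM in fed and 459, 656 and 754 CPM in fasted wild-type mice. Again the groups did not overlap, and the log2 fold change was 0.87 ± 0.14 (SE), or 1.83-fold, with an adjusted p of 5.5e-06. Fads2 rose less steeply. Its levels were 170, 193 and 236 CPM fed and 258, 340 and 420 CPM fasted, all fasted mice being higher, with a log2 fold change of 0.77 ± 0.15 (1.70-fold, adjusted p = 0.00016).

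Elovl1 went the other way. Fed wild-type mice were at 23, 29 and 32.2 CPM and fasted ones at 13.8, 15.2 and 20.2 CPM, so that every fasted mouse was lower. The log2 fold change was -0.79 ± 0.11, a 1.73-fold decrease with an adjusted p of 7.8e-07. The exons of Elovl1 overlap those of Cdc20 on the opposite strand, and strand was not stated for the counting, so reads of the 2 genes may not be fully separated.

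Promoter sequences of Elovl5, Elovl2 and Elovl1 are shown because these elongases responded to fasting without overlap between groups and in opposite directions. They come from the RefSeq table for GRCm38.p6, which held a promoter for 7 of the 9 genes, Fads1 and Scd2 having none. Each run ends at the base before the first annotated exon, on the gene's own strand and 5′ to 3′, with GGGCGG and CCAAT on either strand in capitals (CCGCCC and ATTGG are their reverse complements). The table gives 2 starts each for Elovl1 and Elovl2, and the upstream one is printed for both. The windows are chr9:77917115-77917363 (plus strand) for Elovl5, chr13:41220406-41220653 (minus strand) for Elovl2 and chr4:118427843-118428092 (plus strand) for Elovl1.
Elovl5: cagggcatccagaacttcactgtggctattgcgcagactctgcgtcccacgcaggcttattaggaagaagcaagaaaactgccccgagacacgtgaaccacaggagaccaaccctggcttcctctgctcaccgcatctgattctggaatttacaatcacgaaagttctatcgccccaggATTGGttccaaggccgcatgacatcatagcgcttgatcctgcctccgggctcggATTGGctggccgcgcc
Elovl2: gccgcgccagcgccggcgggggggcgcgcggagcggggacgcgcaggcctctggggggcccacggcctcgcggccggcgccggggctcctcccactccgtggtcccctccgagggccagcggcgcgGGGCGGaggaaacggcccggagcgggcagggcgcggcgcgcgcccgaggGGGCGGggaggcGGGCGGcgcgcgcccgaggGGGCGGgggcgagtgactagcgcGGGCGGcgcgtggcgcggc
Elovl1: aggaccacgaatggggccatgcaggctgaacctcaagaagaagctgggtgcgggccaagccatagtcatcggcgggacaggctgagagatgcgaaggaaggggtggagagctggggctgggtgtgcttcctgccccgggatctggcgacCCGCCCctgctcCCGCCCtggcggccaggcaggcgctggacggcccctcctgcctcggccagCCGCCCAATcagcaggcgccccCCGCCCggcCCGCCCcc

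Within the 250 bases before these starts, Elovl5 held 2 CCAAT matches and no GGGCGG, Elovl2 held 5 GGGCGG matches and no CCAAT, and Elovl1 held 5 GGGCGG matches and 1 CCAAT, of which a GGGCGG and the CCAAT share bases. Before its other start Elovl2 held neither motif, and Elovl1 held 2 GGGCGG matches, no CCAAT and 1 AGGTCA, the half-site of nuclear receptors. GGGCGG was found in 32.7% and CCAAT in 33.8% of all 32851 promoter windows of that length. Elovl5 also held CACGTG, the E-box, which occurred in 6.02% of windows. TCACNCCAC, written here for the core of a sterol response element and present in 1.05% of windows, was found in none of the member windows, and neither were direct repeats of AGGTCA spaced by 1 or by 4 bases. G and C made up 55.6% of the Elovl5 window, 87.2% of the Elovl2 window and 72% of the Elovl1 window before the printed starts. The motif counts were not adjusted for this. A match in this short window is only a description of its letters.

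Fads1, Fads2 and Fads3 lie in 1 cluster on chromosome 19 (GRCm38, 10041548 to 10196870, 155.3 kb), Fads3 and Fads1 on the plus strand and Fads2 between them on the minus strand. The starts of Fads1 and Fads2 are 81.4 kb apart. The neighbours did not share a fasting response. Fads1, the delta-5 desaturase, was at 328, 372 and 440 CPM in fed and 242, 328 and 384 CPM in fasted wild-type mice, overlapping groups with a log2 fold change of -0.23 (95% interval -0.50 to 0.05, adjusted p = 0.21), whereas Fads2 was 1.70-fold higher. Fads3, a desaturase of the same family that acts on sphingoid bases, was scarce, at 6.53, 8.60 and 11.6 CPM fed and 9.07, 12.4 and 16.1 CPM fasted. It rose by a log2 fold change of 0.54 ± 0.16 (adjusted p = 0.0091), although the groups overlapped.

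Scd2, a delta-9 desaturase, was the scarcest gene per length, with counts of 31 to 449 per library. In wild-type mice it lay at 5.09, 8.37 and 10.2 CPM fed and 5.61, 6.21 and 7.88 CPM fasted, and the log2 fold change of -0.34 had a 95% interval from -0.91 to 0.22. Scd1, its close paralog, stood at 408 to 12398 CPM in the same mice, and 4 of the 36 Scd2 counts were not whole numbers. Values of Scd2 are thus uncertain as far as reads may have been shared among the Scd genes.

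Hsd17b12 and Tecr, the reductases that serve every elongase, moved least. Hsd17b12 was at 166, 184 and 202 CPM in fed and 143, 163 and 192 CPM in fasted wild-type mice (log2 fold change -0.16, 95% interval -0.33 to 0.00, adjusted p = 0.13). It was called without fasted mouse WT_918, at an adjusted p of 0.045. Tecr was at 86.5, 101 and 109 CPM fed and 79.5, 91.4 and 106 CPM fasted, a log2 fold change of -0.11 (95% interval -0.28 to 0.07). Groups overlapped for both genes.

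**Figure D2:**
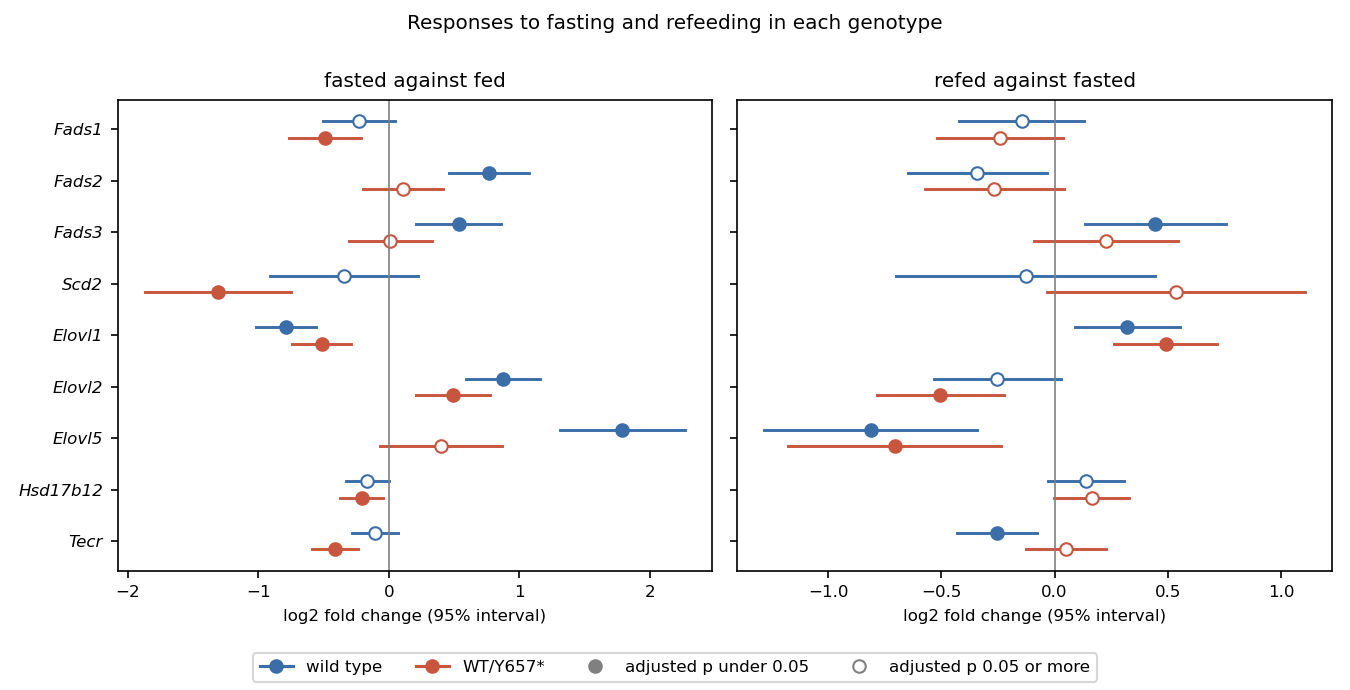
Log2 fold changes with 95% intervals for the 9 genes, fasted against fed (left) and refed against fasted (right), in wild-type (blue) and WT/Y657* (red) liver, with filled points where the adjusted p was under 0.05. For Elovl5 the fasting response was 1.79 in wild-type and 0.40 in WT/Y657* liver, while the refeeding responses were -0.81 and -0.71.

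In WT/Y657* liver, fasting gave another set of calls. Elovl2 rose, Fads1, Scd2, Elovl1, Hsd17b12 and Tecr fell, and Fads2, Fads3 and Elovl5 did not pass the test. That made 6 of 9 genes, with 32.9% of all genes tested called, and for none of the 6 were the fasted and fed groups free of overlap. Here too the share of all genes free of overlap was not counted. Among the fed WT/Y657* mice, mice MT_866, MT_868 and MT_869 stood apart, as described below.

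Elovl5 was at 258, 688 and 911 CPM in fed and 519, 824.5 and 1215 CPM in fasted WT/Y657* mice. The groups overlapped widely, and the log2 fold change was 0.40 (95% interval -0.07 to 0.87, adjusted p = 0.19). Without mice MT_866, MT_868 and MT_869 it was 1.01 with an adjusted p of 0.0028. Fads2 was at 182, 263 and 372 CPM fed and 246, 268 and 355 CPM fasted, and its log2 fold change of 0.11 (adjusted p = 0.62) became 0.57 (adjusted p = 0.0031) without the same mice. Elovl2 rose with all mice, from 359, 505.8 and 671 CPM to 534, 679 and 979 CPM, by a log2 fold change of 0.49 ± 0.14 (adjusted p = 0.0057), and by 0.85 without them.

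Among the genes that fell in fasted WT/Y657* mice, Elovl1 was at 21.3, 25.2 and 28.3 CPM fed and 14.8, 17.4 and 22 CPM fasted (log2 fold change -0.52 ± 0.11, adjusted p = 0.00045). Tecr was at 88.5, 99.7 and 119 CPM fed and 65.1, 77.3 and 88.5 CPM fasted (-0.41 ± 0.09, adjusted p = 0.00032). For both genes the groups met only at their edges. Fads1 fell from 312, 431 and 619 CPM to 268, 292 and 398 CPM (-0.49 ± 0.14, adjusted p = 0.0050), and without mice MT_866, MT_868 and MT_869 the value was -0.24 with an adjusted p of 0.23. Hsd17b12 went from 147, 177 and 189 CPM to 121, 158 and 163 CPM (-0.21 ± 0.08, adjusted p = 0.048), a call that was lost without any 1 of mice MT_806, MT_827, MT_922, MT_857, MT_858, MT_859 and MT_869, with an adjusted p of up to 0.16.

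Scd2 gave the largest fall in fasted WT/Y657* mice, from 6.68, 10.1 and 31.3 CPM fed to 3.44, 5.44 and 6.88 CPM fasted. Mouse MT_866 alone held the value of 31.3 CPM, and the next highest fed mouse was at 13.2 CPM. The log2 fold change was -1.31 ± 0.28 (adjusted p = 0.00036), it was -0.85 without mouse MT_866, and the call held without it.

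The difference between the genotypes in the fasting response was tested as an interaction. Of the 9 genes 1 was called, Elovl5, when 4.35% of all genes tested were. The log2 difference, response in WT/Y657* minus response in wild type, was -1.39 ± 0.33 with an adjusted p of 0.012, and the call held without any 1 mouse, between -1.60 and -1.25. Without mice MT_866, MT_868 and MT_869 together it was -0.78 with an adjusted p of 0.19. For Fads2 the difference was -0.65 (95% interval -1.09 to -0.22, adjusted p = 0.072), and it was called in 4 of the 24 fits that left out 1 mouse, those without mice WT_807, MT_922, MT_858 or MT_859, with an adjusted p down to 0.028. At an unadjusted p under 0.05 there were 5 of 9 genes, Elovl5, Fads2 and the next 3. The difference was -0.97 for Scd2 (interval -1.76 to -0.17, adjusted p = 0.16), -0.52 for Fads3 (-0.98 to -0.07, adjusted p = 0.18) and -0.30 for Tecr (-0.55 to -0.06, adjusted p = 0.15). Of all genes tested, 13.6% had a smaller p than Fads3, the weakest of these 5. For Elovl2, which missed that threshold, the share was 20.7%. Intervals for Elovl1 (-0.05 to 0.60), Elovl2 (-0.78 to 0.01), Fads1 (-0.65 to 0.13) and Hsd17b12 (-0.28 to 0.19) included 0.

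The comparison of genotypes in fed liver asked whether the mutation alters these transcripts before any fast. Elovl2 and Elovl5 were higher in WT/Y657* mice, 2 of 9 genes called against 2.37% of all genes tested. Elovl5 was at 177, 242 and 473 CPM in wild-type and 258, 688 and 911 CPM in WT/Y657* mice, a log2 difference of 1.17 ± 0.23 (2.24-fold, adjusted p = 0.0080). Elovl2 was at 302, 333 and 410 CPM against 359, 505.8 and 671 CPM, a difference of 0.58 ± 0.14 (1.49-fold, adjusted p = 0.021). For both genes the groups overlapped.

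The overlap followed the mouse numbers. In mice MT_866, MT_868 and MT_869 Elovl5 was at 850, 911 and 781 CPM, and in mice MT_857, MT_858 and MT_859, which are WT/Y657* too, at 595, 258 and 387 CPM. Fads2 was at 337, 372 and 319 CPM in the former and at 206, 182 and 197 CPM in the latter, where wild-type mice ranged from 170 to 236 CPM. Elovl2 was at 671, 581 and 598 CPM against 431, 390 and 359 CPM. The 3 mice with the highest numbers were thus the highest of all 12 fed mice for Fads1, Fads2, Elovl2 and Elovl5, and the other WT/Y657* mice lay within or close to the wild-type range for Fads1 and Fads2.

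No wild-type mouse carried a number in the range of MT_866 to MT_869, so genotype and that block of numbers cannot be told apart for these 3 mice. Within the numbers from WT_856 to WT_860, where 2 wild-type and 3 WT/Y657* mice were available, the log2 difference was -0.02 for Elovl5, 0.10 for Elovl2, -0.17 for Fads2 and -0.14 for Fads1. With the blocks of numbers as a covariate, or without mice MT_866, MT_868 and MT_869, no member was called. With the covariate the genotype difference rests on the same 2 against 3 mice, because each other block held 1 genotype. The absence of calls in that fit therefore says little. The fit without the 3 mice gave 0.56 for Elovl5 (adjusted p = 0.63) and 0.22 for Elovl2 (adjusted p = 0.85), and no gene of all those tested passed in either fit. The call for Elovl2 was also lost without any 1 of mice WT_847, WT_849, MT_866, MT_868 and MT_869, with an adjusted p of up to 0.087, and Fads2 was called in 3 of 12 fits that left out 1 mouse, those without mice MT_857, MT_858 or MT_859.

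**Figure D3:**
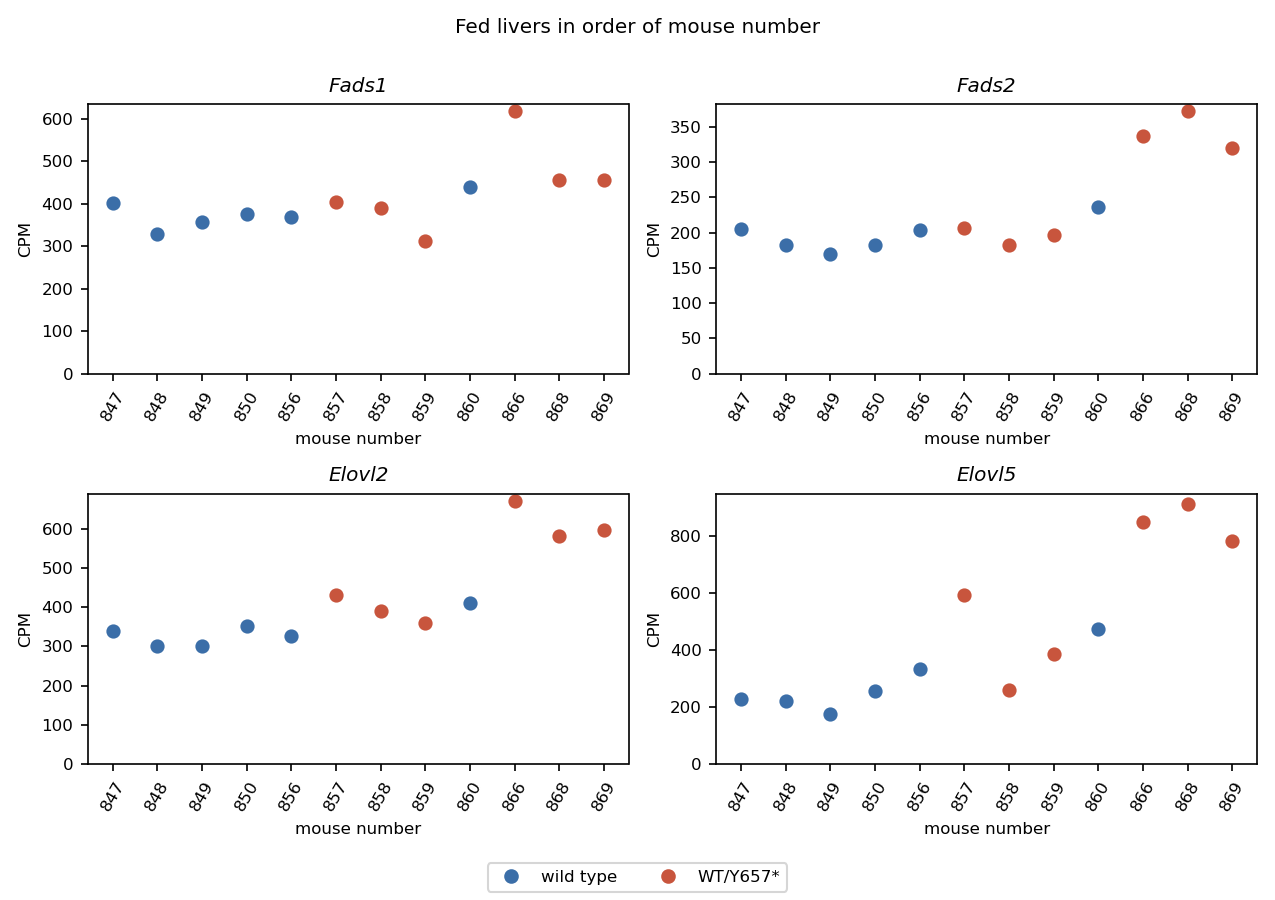
Levels of Fads1, Fads2, Elovl2 and Elovl5 in CPM in the 12 fed livers, in order of mouse number, with wild-type mice in blue and WT/Y657* mice in red. Mice MT_866, MT_868 and MT_869 are the highest for all 4 genes, and wild-type mice WT_856 and WT_860 are the highest wild-type mice for Elovl5, at 333 and 473 CPM.

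Sums of macrophage, lymphocyte and pancreas markers also set mice MT_866, MT_868 and MT_869 apart, and those of stellate cell markers did not. For macrophage and lymphocyte markers, mouse MT_869 was only slightly above the highest of the other fed mice. The summed level of 10 Kupffer cell and macrophage markers was 796, 949 and 603 CPM in mice MT_866, MT_868 and MT_869, between 268 and 594 CPM in the other WT/Y657* mice and between 282 and 409 CPM in fed wild-type mice. The 10 lymphocyte markers summed to 51.5, 47.5 and 25.1 CPM in these 3 mice and to 11.5 to 23.1 CPM in the other 9. The 8 exocrine pancreas markers, of which 1 passed the filter on low counts, went the other way, at 8.02, 9.95 and 8.01 CPM in these 3 mice and 18.3 to 27.4 CPM in the other 9. The 10 stellate cell and fibroblast markers summed to 765, 578 and 525 CPM in the 3 mice, to 524 to 657.3 CPM in the other WT/Y657* mice and to 376 to 576 CPM in wild-type mice. Of the macrophage markers 0 of 10 and of the lymphocyte markers 2 of 7 tested were called between the genotypes in fed liver, as were 2 of 10 stellate markers, all of them higher in WT/Y657* mice. The 10 hepatocyte markers summed to 93257, 73527 and 69511 CPM in the 3 mice, inside or below the wild-type range of 83709 to 97705 CPM. In the other WT/Y657* mice they summed to 60131 to 80272 CPM, below that range as well. The part of these cells in the member values was not tested, and in bulk liver fewer cells of a type and less RNA per cell cannot be told apart.

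The remaining 7 genes were not called between fed genotypes. Fads2 had a log2 difference of 0.45 (95% interval 0.15 to 0.76, adjusted p = 0.094), Scd2 of 0.69 (0.15 to 1.23, adjusted p = 0.16) and Fads3 of 0.33 (0.00 to 0.65, adjusted p = 0.28). Intervals of Fads1, Elovl1, Hsd17b12 and Tecr included 0, the narrowest being those of Hsd17b12 (-0.24 to 0.09) and Tecr (-0.15 to 0.20).

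In fasted liver Tecr, the enoyl-CoA reductase, was lower in WT/Y657* mice, and it was the 1 gene of 9 called, when 13.1% of all genes tested were. It lay at 79.5, 91.4 and 106 CPM in wild-type and 65.1, 77.3 and 88.5 CPM in WT/Y657* mice. The highest mutants reached into the wild-type range. The log2 difference was -0.28 ± 0.09 (1.21-fold lower, adjusted p = 0.028), with -0.22 in the low-number and -0.34, without overlap, in the high-number series. The call was lost without any 1 of mice WT_918, WT_919, MT_806, MT_827 and MT_923, with an adjusted p of up to 0.087.

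The other 8 genes were not called between fasted genotypes. Elovl5 was at 519, 824.5 and 1215 CPM in WT/Y657* against 813, 970 and 1084 CPM in wild-type mice (log2 difference -0.22, 95% interval -0.69 to 0.25). The difference was -0.11 in the low-number and -0.43 in the high-number series, where all 3 mutants were lower. Over both series the mutants were spread more widely, with a coefficient of variation of 29.7% against 10.4%. Fads2 had a log2 difference of -0.20 (-0.51 to 0.10), made up of 0.03 in the low-number and -0.41 in the high-number series, where all 3 mutants were lower. Elovl2 had 0.20 (-0.08 to 0.48), and Scd2 had -0.28 with a wide interval (-0.86 to 0.30).

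In refed liver 0 of 9 genes were called, as were 0.0287% of all genes tested, 4 in number. At an unadjusted p under 0.05 there were 2, Fads3 and Elovl1, and DESeq2 and limma-voom also called none of the 9. Of all genes tested, 2.71% had a smaller p than Fads3 and 4.12% a smaller p than Elovl1. Fads3 was at 14.3, 17.5 and 20.9 CPM in wild-type and 9.82, 13.5 and 15.2 CPM in WT/Y657* mice (log2 difference -0.42, 95% interval -0.72 to -0.11, adjusted p = 0.36). It was lower without overlap within each number series, by -0.45 in the low-number and -0.39 in the high-number series. Elovl1 was at 17.6, 19.2 and 25.8 CPM against 20.2, 24.2 and 29.3 CPM (0.28, interval 0.05 to 0.50, adjusted p = 0.40).

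Refeeding for 6 h after the fast moved some of these genes back towards the fed level and others not. In wild-type liver Fads3 and Elovl1 rose and Elovl5 and Tecr fell, 4 of 9 genes against 30.2% of all genes tested. In WT/Y657* liver Elovl1 rose and Elovl2 and Elovl5 fell, 3 of 9 against 31.3%. The 2 genotypes differed in the refeeding response for 0 of 9 genes, against 2.06% of all genes tested. For Tecr, the 1 gene at an unadjusted p under 0.05, the difference was 0.31 (interval 0.06 to 0.55, adjusted p = 0.20), and DESeq2 and limma-voom called none either. A smaller p than that of Tecr was found for 8.86% of all genes tested.

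Elovl5 fell from 813, 970 and 1084 CPM fasted to 518, 536 and 610 CPM refed in wild-type mice, with no overlap (log2 fold change -0.81 ± 0.23, adjusted p = 0.0072). In WT/Y657* mice it fell from 519, 824.5 and 1215 CPM to 399, 511 and 629 CPM with overlap (-0.71 ± 0.23, adjusted p = 0.018). The latter call was lost without mouse MT_827, at an adjusted p of 0.064. Elovl2 was at 441, 521 and 572 CPM in refed wild-type mice (-0.25, interval -0.53 to 0.03) and fell to 402, 506.1 and 571 CPM in refed WT/Y657* mice (-0.50 ± 0.14, adjusted p = 0.0048).

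Elovl1 rose in both genotypes, by 0.32 ± 0.11 in wild-type (adjusted p = 0.029) and 0.49 ± 0.11 in WT/Y657* mice (adjusted p = 0.00083). Refed levels were 17.6, 19.2 and 25.8 CPM and 20.2, 24.2 and 29.3 CPM, above the medians of the fasted groups in every mouse. The wild-type call was lost without any 1 of mice WT_824, WT_918, WT_920 and WT_816, with an adjusted p of up to 0.12, and the call in WT/Y657* mice held without any 1 mouse. Tecr fell in refed wild-type mice to 68.9, 79.8 and 84 CPM (-0.25 ± 0.09, adjusted p = 0.024), a call lost without any 1 of mice WT_919, WT_828 and WT_900, with an adjusted p of up to 0.076. In WT/Y657* mice it stayed at 62.3, 79.4 and 99.1 CPM (0.05, interval -0.12 to 0.23).

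The refeeding values of the Fads cluster are given within each number series, and the difference between the series was not tested. In the low-number series the log2 difference, refed minus fasted, was 0.22 for Fads1 and 0.03 for Fads2 in wild-type and 0.00 and -0.10 in WT/Y657* liver, with overlapping mice. In the high-number series it was -0.51 and -0.69 in wild-type and -0.49 and -0.43 in WT/Y657* liver, and all refed mice were lower. Fads3 showed another pattern, higher in every refed mouse of the low-number series (0.89 in wild-type, 0.50 in WT/Y657*) and at 0.05 and -0.01 in the high-number series. These values rest on 3 mice against 3, and what set the number series apart is not given in the labels.

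Over both series the refeeding change of Fads1 was -0.14 in wild-type and -0.24 in WT/Y657* liver, and that of Fads2 was -0.34 and -0.27, with adjusted p between 0.085 and 0.46. With the number series as a covariate Fads2 was called in wild-type mice (-0.34, adjusted p = 0.044), and it was called in 2 of the 12 fits that left out 1 mouse, those without mice WT_807 and WT_824, with an adjusted p down to 0.048. Fads3 rose by 0.44 ± 0.15 in wild-type mice (adjusted p = 0.026), which was lost without any 1 of mice WT_807, WT_825, WT_815 and WT_816, with an adjusted p of up to 0.075. Hsd17b12 was at 170, 180 and 187 CPM in refed wild-type and 138, 168 and 201 CPM in refed WT/Y657* mice (0.14 and 0.16, adjusted p of 0.21 and 0.13), and it was called in the mutants without mouse MT_898, at an adjusted p of 0.043. Scd2 gave -0.13 in wild-type and 0.54 in WT/Y657* liver, whereas Scd1 fell by 2.31 and fell by 2.09 on the log2 scale.

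**Figure D4:**
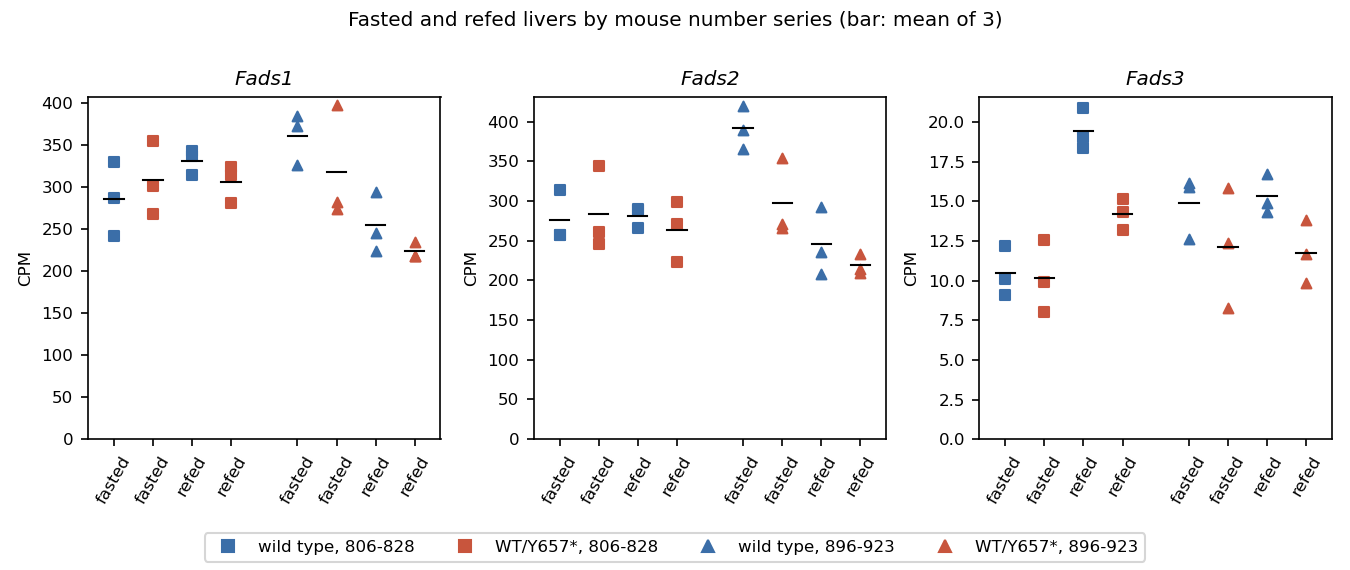
Levels of Fads1, Fads2 and Fads3 in CPM in fasted and refed livers, with the low-number series as squares and the high-number series as triangles, wild-type in blue and WT/Y657* in red, and a bar at the mean of 3 mice. Fads1 and Fads2 are lower in refed than in fasted mice among the triangles, and Fads3 is higher in refed than in fasted mice among the squares.

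After 6 h of refeeding the wild-type livers still differed from the fed state. Of 9 genes 7 were called, against 27.5% of all genes tested: Fads2, Fads3, Elovl2 and Elovl5 were higher and Fads1, Elovl1 and Tecr lower. Fads3 was at 14.3, 17.5 and 20.9 CPM refed and 6.53, 8.60 and 11.6 CPM fed, without overlap, a log2 difference of 0.98 ± 0.16 (adjusted p = 1.4e-05) that exceeded its fasting response of 0.54. Elovl5 (0.98, adjusted p = 0.0019) and Elovl2 (0.62, adjusted p = 0.00090) were also above every fed mouse, and Tecr (-0.36, adjusted p = 0.0019) was below every one.

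Elovl1 was still 1.38-fold lower (-0.47 ± 0.11, adjusted p = 0.0016). The calls for Fads1 (-0.37, adjusted p = 0.038) and Fads2 (0.42, adjusted p = 0.034) were less firm. Fads1 was lost without any 1 of mice WT_847, WT_850, WT_860, WT_896, WT_900 and WT_901, with an adjusted p of up to 0.11, and Fads2 without any 1 of mice WT_848, WT_849, WT_850, WT_815, WT_816, WT_828 and WT_901, with up to 0.078. The comparisons with fed mice share the fed libraries, and state and number series cannot be told apart in them.

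In WT/Y657* liver 3 of 9 genes were called in that comparison, against 26.1% of all genes tested, all lower. Fads1 was at 217, 258 and 324 CPM refed and 312, 431 and 619 CPM fed (-0.73 ± 0.14, adjusted p = 0.00011), and Tecr gave -0.36 ± 0.09 (adjusted p = 0.0020). The Fads1 groups met only at their edges, and the Tecr groups overlapped, at 62.3 to 99.1 CPM refed and 88.5 to 119 CPM fed. Scd2 (-0.77 ± 0.27, adjusted p = 0.029) was lost without any 1 of mice MT_866, MT_817, MT_897 and MT_899, and without mouse MT_866 it was -0.32 with an adjusted p of 0.28. Without mice MT_866, MT_868 and MT_869 the values of Fads2, Elovl2 and Elovl5 were 0.31, 0.35 and 0.30, in place of -0.16, -0.01 and -0.31 with them.

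Over 36 mice Pearson's r of log2 CPM was 0.87 between Elovl2 and Elovl5, 0.87 between Fads2 and Elovl5 and 0.83 between Fads2 and Elovl2. Fads1, the other desaturase of the polyunsaturated pathway, had r of 0.29 with Fads2, 0.034 with Elovl5 and 0.013 with Elovl2. Elovl5 and Elovl2 were the nearest genes to Fads2 among 12600 genes with a mean of at least 1 CPM, Elovl5 and Fads2 the nearest to Elovl2, and Lipa, the lysosomal acid lipase, with r = 0.90 came before both for Elovl5. All points share the feeding states, and no test was made.

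On deviations from the 6 group means, which leave out the states but not the number series, Fads1 and Fads2 were each other's nearest gene (r = 0.79, n = 36). Both genes moved with the series in fasted wild-type mice. Mean log2 CPM was 8.15 (Fads1) and 8.10 (Fads2) in the low-number and 8.49 and 8.61 in the high-number series. The part of the series in these values of r was not tested. Fads2 and Elovl2 kept r = 0.78, Fads2 and Elovl5 0.77 and Elovl2 and Elovl5 0.72, where mice MT_866, MT_868 and MT_869 enter with the others of their group. Hsd17b12 had as its nearest gene Slc2a2, the glucose transporter of hepatocytes, on levels (r = 0.88) and on deviations (r = 0.86), and Tecr had Adipor2, an adiponectin receptor (r = 0.84), and on deviations Cyp2d22 (r = 0.69). Elovl1 had Lsr, the lipolysis-stimulated lipoprotein receptor (r = 0.90), and on deviations Parp3 (r = 0.68). Scd2 had Tapbp, tapasin of the antigen-loading complex (r = 0.77), and on deviations Lyve1, a marker of sinusoidal endothelium and lymphatics (r = 0.81). Mouse MT_866, with Scd2 at 31.3 CPM against 13.2 CPM in the next highest fed mutant, enters both values of r. Neither was computed without it. Fads3 had Vegfa (r = 0.77) and on deviations Mpv17l2 (r = 0.68).

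**Figure D5:**
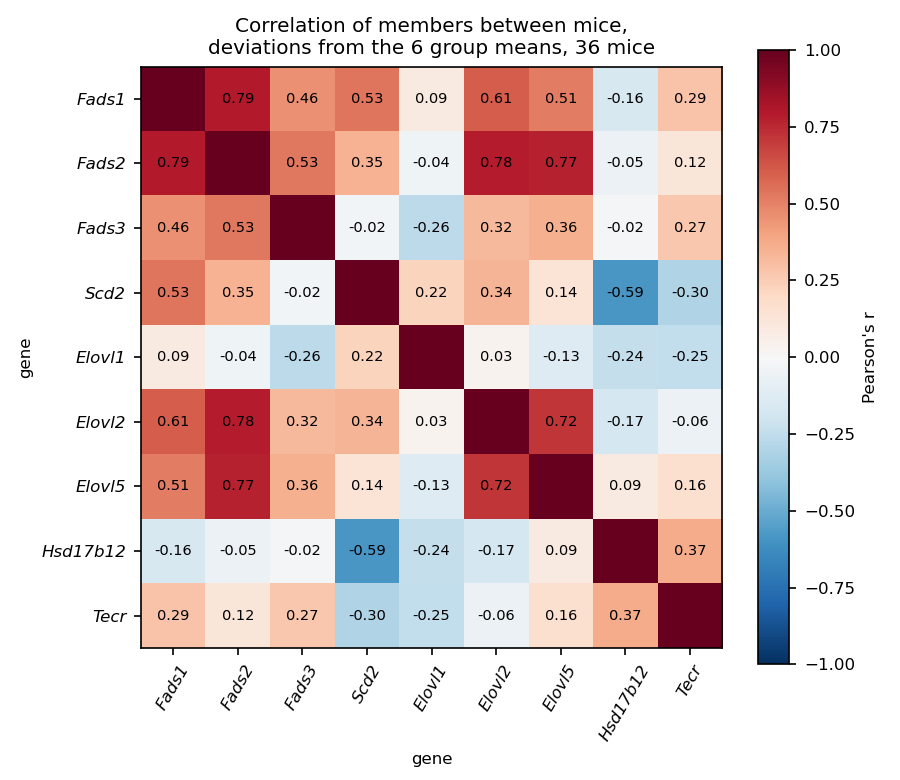
Pearson's r between the 9 genes over 36 mice, computed on log2 CPM after subtraction of the 6 group means, from blue (-1) to red (1). Differences between the number series within a group were not subtracted. Fads1, Fads2, Elovl2 and Elovl5 have r between 0.51 and 0.79 with each other. Outside these 4 genes, Fads1 with Scd2 and Fads2 with Fads3 reach r = 0.53. Hsd17b12 and Scd2 have r = -0.59, where mice MT_866 and MT_898 had the highest Scd2 and the lowest Hsd17b12 of their groups.

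Other genes of the pathway were counted from lists written by hand. Of all genes tested, 32% were called for fasting in wild-type mice, 32.9% for fasting in WT/Y657* mice, 13.1% between fasted and 2.37% between fed genotypes, and with lists of 6 to 18 genes the counts below are descriptions to be read beside these shares. Of 14 further desaturation and elongation genes 11 were tested, and in fasted wild-type liver 3 rose and 2 fell, with a median log2 fold change of 0.19 against 0.01 for all genes. Hacd3, a dehydratase of the elongation cycle, rose by 0.74 (adjusted p = 6.8e-10), and Elovl6, the elongase of palmitate, fell by 1.94 on the log2 scale (adjusted p = 1.3e-05). Fads6 was lower by a log2 fold change of -0.26 (adjusted p = 0.0066). None of the 11 was called between genotypes in the fed, fasted or refed state.

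Cytochrome b5 and its reductases pass electrons to the desaturases. Of 6 tested, 0 rose and 2 fell in fasted wild-type mice, Cyb5b (-1.10, adjusted p = 3.7e-08) and Cyb5r3 (-0.56, adjusted p = 0.00011). The same 2 were lower in fasted WT/Y657* than in fasted wild-type mice (-0.39, adjusted p = 0.048 and -0.35, adjusted p = 0.030). Of 8 genes for acyl-CoA activation tested, 4 rose and 2 fell on fasting in wild-type mice, among them the transporters Slc27a2 (1.23) and Slc27a1 (2.68), which rose, and Acsl4 (-1.44), which prefers arachidonic acid and fell. Between fasted genotypes 4 of the 8 were lower in WT/Y657* mice, including Slc27a5 (-0.32, adjusted p = 0.0054), Slc27a1 (-0.87, adjusted p = 0.0075) and Acsl3 (-0.60, adjusted p = 0.018), and 1 was higher.

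Peroxisomal chain shortening completes docosahexaenoic acid after Elovl2. Of its 8 genes 6 rose and 0 fell in fasted wild-type mice, with a median log2 fold change of 0.84, and the thiolases Acaa1a (0.95) and Acaa1b (1.83) were among those that rose. In WT/Y657* mice 4 rose and 2 fell, with a median of 0.57, Hsd17b4 (0.59) being among those that rose and Scp2 (-0.34) among those that fell. Between fed genotypes 1 was higher in WT/Y657* mice, Abcd2 (2.72 ± 0.66, adjusted p = 0.026). Of 8 enzymes of phospholipid acyl remodelling tested, 5 rose and 1 fell in fasted wild-type mice, Agpat3 (0.83, adjusted p = 4.5e-11) and Lclat1 (0.36, adjusted p = 0.00027) having the smallest p. Between fasted genotypes 1 was higher, Agpat5 (0.32, adjusted p = 0.014), and 2 were lower, Lclat1 (-0.26, adjusted p = 0.019) and Lpcat3 (-0.27, adjusted p = 0.041).

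Of 18 transcriptional regulators of these enzymes, 3 rose and 7 fell in fasted wild-type mice. Srebf1 fell by 2.58 on the log2 scale (adjusted p = 5.8e-12) and Mlx by 0.63 (adjusted p = 2.5e-09), and Insig2, which retains SREBP in the endoplasmic reticulum, rose by 1.25 (adjusted p = 2.3e-07). Between fasted genotypes 3 were lower in WT/Y657* mice, Ppara (-0.55, adjusted p = 0.00033), Srebf1 (-1.07, adjusted p = 0.00037) and Sp1 (-0.26, adjusted p = 0.031). Between fed genotypes 3 were lower as well, Mlx (-0.39, adjusted p = 0.0018), Rxra (-0.31, adjusted p = 0.0074) and Sp1 (-0.29, adjusted p = 0.043). Like Abcd2 they were not called without mice MT_866, MT_868 and MT_869. No gene of all those tested was called in that fit, so the loss is not particular to these genes. The fasting response differed between the genotypes for Srebf1 (-1.24, adjusted p = 0.0078), Mlx (0.50, adjusted p = 0.0026) and Hnf4a (0.41, adjusted p = 0.033), and the refeeding response for Srebf1 (1.04, adjusted p = 0.036). Srebf1 was at 451, 526.3 and 608 CPM in fed and 64.3, 78 and 139 CPM in fasted wild-type mice, a fall in the same livers in which Fads2, Elovl2 and Elovl5 rose.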

How the data were processed

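Total RNA from liver was made into stranded libraries (TruSeq) and read as 50-base single reads. The authors deposited estimated counts, one value for each gene and mouse with no normalization applied, and their processing notes name Cuffdiff, SAMtools, featureCounts, edgeR and the build mm9. The labels speak of human genes, yet 94.93% of the gene identifiers were found in the mouse GENCODE M21 annotation, and 99.66% of those had a deposited locus that overlapped the GRCm38 gene, so GRCm38 is used for coordinates. A second table of fitted values holds no variation between mice and was not used.

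Counts, of which 3.64% of those above 0 were not whole, were rounded and analysed in R 4.3.3 with edgeR 4.0.16: filterByExpr over the 6 groups, TMM scaling, and glmQLFit (robust) with 1 coefficient per group over 36 libraries. The 11 contrasts were tested two-sided and adjusted by Benjamini-Hochberg over 13945 genes with a threshold of 0.05. Levels are CPM, and log2 CPM used a prior count of 2. Within-series differences and correlations are descriptions without a test. The labels do not say that mice were independent in litter or cage, and p-values measure the spread between these mice. Counts of 2 libraries of a group differed by more than sampling noise in all 90 pairs (chi-square over degrees of freedom at least 6.54).

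Members and gene lists were chosen with earlier results of these data known. All members are named, with the 3 nearest genes or fewer for each, and for each list the called genes with the smallest p in the wild-type fasting response and between fasted genotypes. Genes of these lists named for other comparisons, and in fasted WT/Y657* against fed mice, were chosen after their values were seen. Some results of the peroxisomal list are not reported here. Hacd1 to Hacd4, Cyb5a and Adgre1 carry older symbols in the file and were matched by identifier. In simulated counts for the fed genotype comparison over 13792 genes, 86.9% of the changed genes tested were recovered. All planted changes were at least 1 on the log2 scale, and 80.8% of those at 1 were recovered. The simulation held no number blocks, so it does not show how well smaller changes or changes within blocks are found. Alternatives were DESeq2 1.42.0, limma-voom (limma 3.58.1), edgeR's likelihood ratio test, other scalings, filters and adjustments, number blocks as covariates, only the libraries compared, and each mouse left out.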

Additional observations from a re-analysis of the deposited data

Results flagged for a closer look

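In a group of 6 mice, a value was singled out when its gap to the nearest other mouse was above Dixon's 95% critical share of the group's range, which chance gives in about 1 in 20 groups. Of 54 groups of member values 2 held such a mouse. Scd2 in fed WT/Y657* mice was at 31.3 CPM in mouse MT_866, with a gap of 0.734 of the range. Elovl1 in refed wild-type mice was at 25.8 CPM in mouse WT_816, with a gap of 0.663. The fasting response of Elovl5 differed between the genotypes by -1.39 on the log2 scale in the interaction test of edgeR (adjusted p = 0.012), and by -0.78 without mice MT_866, MT_868 and MT_869.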

How the results depend on the processing

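The direction of a called member was reversed in none of the alternatives run. Under Bonferroni adjustment the number of members called was 3 for fasting and 1 for refed against fed in wild-type liver, and 0 in the other 9 comparisons. For the genotype comparison in fed liver it was 0 with only the libraries compared, 0 with the number blocks as a covariate and 0 without mice MT_866, MT_868 and MT_869 (an alternative chosen after seeing the data), and 1 to 3 with 1 mouse left out. For the interaction with fasting it was 2 with DESeq2, 2 with library size alone, 0 without the same 3 mice and 1 to 2 with 1 mouse left out. With 1 mouse left out it was 0 to 1 for the fasted genotype comparison and 2 to 4 for refeeding in wild-type liver. All other counts of members stayed within 1.5 times the main count. The causes were not tested. No paired analysis was possible because each mouse has a number of its own. Each called member value was paired with each alternative other than leaving out 1 mouse. Of these pairs, 263 kept direction and call and 49 lost the call.

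Over all genes, 330 were called between fed genotypes, against 644 with DESeq2, 516 with the likelihood ratio test, 756 with library size alone, 207 with no filter, 30 with only the libraries compared, 13 with Bonferroni adjustment, 0 with number blocks or without the 3 mice, and, with 1 mouse left out, from 68 to more than with library size alone. Between refed genotypes 4 were called, against 25 with DESeq2, 18 with the likelihood ratio test, 12 with the number series as a covariate, 2 with Bonferroni adjustment and 1 to 6 with 1 mouse left out. The interactions gave 607 (fasting) and 287 (refeeding) genes, 386 and 152 with no filter, 28 and 12 with Bonferroni adjustment, and 378 for fasting without the 3 mice. With 1 mouse left out the refeeding interaction gave 124 to 391 genes and the fasted genotype comparison, at 1821, gave 1168 to 2003. Bonferroni adjustment left 140 there and 560 to 991 in the 6 comparisons of states.

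Log2 values that were not called changed sign. With library size alone they were 0.022 (Elovl1) and 0.029 (Elovl2) for refed against fed mutants, 0.014 (Elovl2, refed genotypes), -0.045 (Fads3, fasting mutants), 0.024 (Hsd17b12, fed genotypes) and 0.049 (Hsd17b12, refed against fed wild type). With limma-voom they were 0.021 (Elovl2, refed against fed mutants) and -0.035 (Fads3, fasting mutants), and with no filter -0.0069 for the latter. With number blocks Fads1 and Fads2 were at -0.13 and -0.17 between fed genotypes, and without mice MT_866, MT_868 and MT_869 at -0.036 and -0.00982, with Hsd17b12 at 0.029. Without these mice, refed against fed mutants gave 0.31 (Fads2), 0.35 (Elovl2) and 0.30 (Elovl5). Summed counts of Scd1 to Scd4 gave -2.09 for refeeding in mutants, against 0.54 for Scd2, but Scd1 alone gave the same value as the sum, which is no check of Scd2.

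With 1 mouse left out, the ranges that crossed 0 were -0.084 to 0.023 (Elovl1, refed against fed in mutants), -0.10 to 0.0017 (Elovl2, genotype in refed), -0.094 to 0.086 (Elovl2, refed against fed in mutants), -0.13 to 0.0069 (Fads1, genotype in fasted), -0.12 to 0.092 (Fads3, fasting in mutants), -0.087 to 0.012 (Hsd17b12, interaction with fasting response), -0.030 to 0.077 (Hsd17b12, interaction with refeeding response), -0.10 to 0.0055 (Hsd17b12, refed against fed in mutants), -0.054 to 0.0033 (Hsd17b12, refed against fed in wild-type), -0.025 to 0.062 (Tecr, genotype in fed), -0.049 to 0.087 (Tecr, genotype in refed), -0.022 to 0.11 (Tecr, refeeding in mutants).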
